A study of Sus scrofa with 4 samples.

Results

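The germ cells of the 60-day pig testis were 287 barcodes among the 11991 kept in that library, or 2.39% of them (2.13 to 2.68%). The filters asked for 1000 or more UMIs (unique molecular identifiers, which count captured RNA molecules), 500 or more genes with a UMI, and no more than 15% of the UMIs on the 13 mitochondrial genes. It counted as a germ cell when at least 3 of UCHL1, DDX4, SOHLH2, TKTL1, MAP7D2, RADX and SMC1B were detected. AMH, INHA and CLDN11, genes of Sertoli cells, had to hold under 0.2% of its UMIs. DAZL, the remaining gene of the rule, was not analysed here. The same rule found 567 germ barcodes at 7 days (4.09%), 1139 at 30 days (6.59%) and 2635 at 90 days (20.8%), which makes 4628 of 55798 kept barcodes over the series. These shares depend on depth: kept barcodes had a median of 5241 UMIs at 7 days and 2331 at 60 days. Among barcodes thinned to 2000 UMIs, the rule found 1.04% at 7 days (0.88 to 1.23%) and 1.24% at 60 days (0.99 to 1.53%). At 30 and 90 days it then found 2.63% and 13.1%. The lower share at 60 than at 7 days was thus not seen at equal depth.

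Whole testes of pigs (Sus scrofa) aged 7, 30, 60 and 90 days were dissociated and profiled by droplet sequencing with 10x Chromium 3′ chemistry, with 1 library per age. The labels give no treatment, sort, breed or number of animals. A whole-organ suspension also holds Sertoli, Leydig, peritubular, stromal, vascular and immune cells. Age and library cannot be told apart and cells are not replicates, so no test was run. The intervals given are exact ones at 95% and hold counting error alone.

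Germ cells of the young testis are prospermatogonia, which settle on the basement membrane of the cords and become spermatogonia. Undifferentiated spermatogonia maintain the germ line, and retinoic acid drives others into differentiation, a series of mitoses and then meiosis. In meiotic prophase, cohesins such as SMC1B and the protein SYCP3 form the chromosome axis, and SYCP1 bridges the axes of paired homologues. Later spermatocytes silence the X chromosome, and haploid spermatids follow. In mice, PIWIL4, MORC1 and DNMT3L silence transposons in prospermatogonia.

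The germ barcodes of the 60-day library carried germ markers at levels above those of somatic cells, where free RNA of the suspension also gives UMIs. UCHL1, a ubiquitin hydrolase that marks spermatogonia in pigs, had a UMI in 87.1% of the 287 germ barcodes and in 6.56% of 1021 endothelial or immune barcodes, which should lack it. TKTL1, a transketolase-like enzyme, had a UMI in 79.1% of the germ barcodes and 2.74% of the endothelial or immune barcodes, and DDX4, an RNA helicase of the germ line, in 66.2% and 2.15%. The median depth was 7164 UMIs in the germ barcodes and 2932 in the endothelial or immune barcodes. With every barcode thinned to 2000 UMIs, UCHL1 was detected in 58.6% of 244 germ barcodes and 4.57% of 657 endothelial or immune barcodes. These genes chose the members, so their levels are a description.

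The rule asks for the germ barcodes with at least 3 UMIs of SYCP1, SYCP3 and SMC1B together, here called axis-marked, to be shown apart from the other germ barcodes. At 60 days 172 barcodes were axis-marked (59.9% of the germ barcodes, 54.0 to 65.6%) and 115 were not. In the other libraries the axis-marked share was 94.7% at 7 days, 87.1% at 30 days and 78.9% at 90 days. Most germ barcodes of the youngest testis were thus axis-marked, and the name is not used here as a sign of meiosis. The split moved with depth: the median was 14285 UMIs in the axis-marked barcodes and 2612 in the other germ barcodes of 60 days. Thinned to 2000 UMIs, the 60-day share was 10.7% (7.08 to 15.2%, 26 of 244 barcodes, 43 left out), and it was 11.3% at 7 days, 15.2% at 30 days and 21.6% at 90 days.

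**Figure D1:**
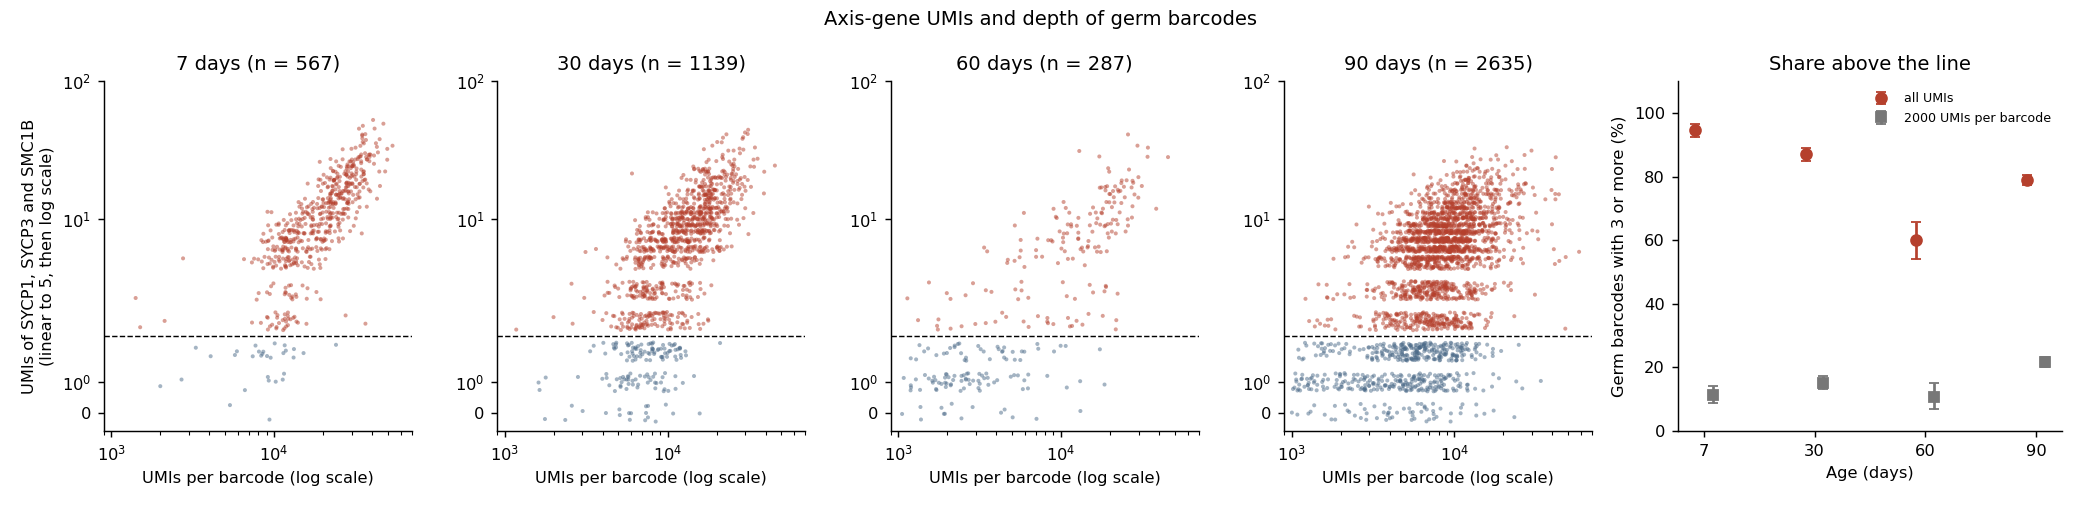
UMIs of SYCP1, SYCP3 and SMC1B together against all UMIs of each germ barcode, by age, with axis-marked barcodes in red above the dashed line and other germ barcodes in blue, jittered for display. The right panel gives the axis-marked share with exact 95% intervals; at 60 days it is 59.9% with all UMIs and 10.7% at 2000 UMIs per barcode.

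Barcodes near the limit of 3 germ markers were shallow. At 60 days 114 germ barcodes had exactly 3 markers, with a median of 2704.5 UMIs, and 294 barcodes under the somatic ceiling had 2 markers and were left out, with a median of 2033. The ceiling on AMH, INHA and CLDN11 removed 71 barcodes with at least 3 germ markers, and 34 members lay between 0.15 and 0.2% beside 28 removed barcodes between 0.2 and 0.25%. At the split, 27 barcodes had 3 axis-gene UMIs, with a median depth of 7223 UMIs, and 39 had 2, with a median of 3354.

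Levels are given as counts per 1000000 (CPM) of the summed UMIs of a group. UCHL1 was at 574 CPM in axis-marked and 623 CPM in other germ barcodes, against 32.8 CPM in endothelial or immune barcodes. Germ genes outside the rule separated in the same way. ELAVL2, an RNA-binding protein of neurons and germ cells, was at 399.7 CPM in axis-marked and 337 CPM in other germ barcodes, against 21.2 CPM in endothelial or immune barcodes. STAG3, a cohesin subunit of meiosis, was at 155 and 105 CPM in the same germ groups, against 6.57 CPM.

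**Figure D2:**
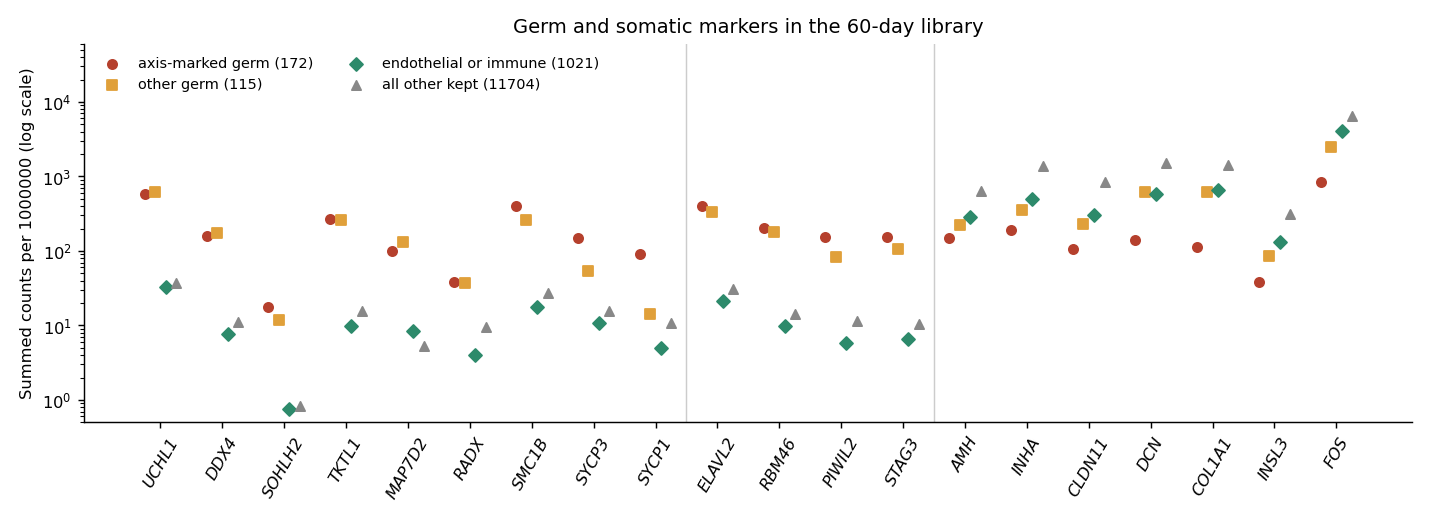
Summed CPM (log scale) of rule and split genes (left), germ genes outside the rule (middle) and somatic genes with FOS (right) in 4 groups of the 60-day library: axis-marked germ, other germ, endothelial or immune, and all other kept barcodes. Both germ groups lie above the somatic groups for the germ genes, as for ELAVL2 at 399.7 and 337 against 21.2 CPM in endothelial or immune barcodes, and DCN and COL1A1 are higher in other germ than in axis-marked barcodes.

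Within the 60-day library, most measured genes of spermatogonia were called neither higher nor lower in axis-marked than in other germ barcodes. Immediate early genes and markers of several somatic types stood lower in the axis-marked ones. "Higher" and "lower" are used of a ratio of at least 2 whose interval excludes no change, over genes with at least 10 counts in both groups together. Among 14830 genes, axis-marked barcodes had 2.2% higher and 4.36% lower than other germ barcodes. The median log2 ratio was 0.05. The groups were split on 3 genes of these same cells, so the values are a description. A gene that was not called can still differ by 2-fold where counts are few, as in the 427247 UMIs of the other germ barcodes. DMRT1, a transcription factor of spermatogonia, was at 214 CPM in axis-marked and 201 CPM in other germ barcodes, a log2 ratio of 0.09 (-0.24 to 0.43). CRABP1, a retinoic acid-binding protein, was at 384 and 356 CPM in the same order. Of 20 genes of undifferentiated spermatogonia, ETV5 was higher and CD9 lower. Of 8 genes in the list for differentiating spermatogonia, KITLG, CCND2 and PRDM1 were lower and 0 higher, with a median log2 ratio of 0.21. KITLG, the ligand of KIT, is not a marker of the spermatogonia themselves.

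Of 13 measured genes of entry into meiosis, 4 were higher in axis-marked barcodes and 0 lower, with a median log2 ratio of 0.65, which was 0.12 among barcodes with at least 5000 UMIs. They were YTHDC2, an RNA helicase required for the meiotic programme, ZGLP1, SCML2 and TEX101. Of the 93 TEX101 UMIs, 73 were in 2 barcodes. Without those barcodes 20 counts against 0 were left, and the interval of the log2 ratio, from -0.23 upward, no longer excluded no change. YTHDC2 was at 28.9 CPM in axis-marked and 9.36 CPM in other germ barcodes, a log2 ratio of 1.63 (0.21 to 3.54). Of 22 genes of meiotic recombination, 4 were higher and 0 lower, among them BRCA2, a DNA repair protein, at 57.5 CPM in axis-marked and 18.7 CPM in other germ barcodes. Of 14 genes of the chromosome axis left after the split genes, HORMAD1 was the 1 that was higher. In the piRNA pathway, which silences transposons, TDRD6, MORC1 and RNF17 were higher and 0 of 20 genes were lower. Among genes chosen by rank, SUV39H2, a histone methyltransferase, was at 52.7 CPM in axis-marked and 14 CPM in other germ barcodes, and LRIG1, a receptor regulator, was at 61.9 and 16.4 CPM.

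Immediate early genes, many of them for transcription factors, respond within minutes to stimuli and to tissue dissociation. They were lower in axis-marked barcodes: 10 of 14 were lower and 0 higher, with a median log2 ratio of -1.54. FOS was at 830.3 CPM in axis-marked and 2483 CPM in other germ barcodes (log2 -1.58, -1.69 to -1.47). Per 10000 UMIs, the lowest, median and highest axis-marked barcode held 0, 5.53 and 58.2 FOS UMIs, and the lowest, median and highest other germ barcode held 0, 25.1 and 92.6, so the groups overlapped. All other kept barcodes of the library had 6503 CPM of FOS. Several somatic marker lists moved with these genes. The 4 measured stromal markers were all lower, COL1A1 at 113 CPM in axis-marked and 618 CPM in other germ barcodes. Of the Sertoli markers 6 of 12 were lower (5 of 9 outside the rule), and 3 of 5 peritubular myoid and 2 of 6 immune markers were lower. Leydig and endothelial markers did not move this way: of 5 Leydig markers STAR was higher and INSL3 lower, with a median log2 ratio of 0.55, and the 7 endothelial markers had a median of 0.38, with 0 higher and 0 lower. The stromal markers summed to 329 CPM in axis-marked and 1683 CPM in other germ barcodes, against 3769 CPM in all other kept barcodes. With 10% of UMIs subtracted as free RNA, 11 immediate early genes were lower and 0 higher. With the rule's Sertoli genes under 0.05% of UMIs, 5 were lower and 0 higher, with a median log2 ratio of -1.20. In that setting, chosen after seeing the data, 1 Sertoli marker was lower, with a list median of -0.29, and 4 stromal markers were lower. The part of depth was not tested. GNLY, a cytotoxic granule protein of lymphocytes, was at 1.19 CPM in axis-marked and 86.6 CPM in other germ barcodes, where 1 barcode held 34 of its 37 UMIs.

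Between 60 and 30 days, few genes of spermatogonia, mitosis and recombination were called higher or lower in axis-marked germ cells, while several immediate early genes were higher at 60 days. Of 20904 genes, 5.27% were higher and 1.6% lower at 60 days, with a median log2 ratio of 0.10. The calls numbered 1102 higher and 335 lower (76.7% higher), and 808 and 479 (62.8% higher) with trimmed-mean (TMM) scaling, which shifts all log2 ratios by -0.11. Of 24 genes of undifferentiated spermatogonia, 0 were higher and DPPA4 was the 1 lower, on 2 counts at 60 days. PIWIL4 was at 82.5 CPM at 60 days and 82.4 CPM at 30 days (log2 0.00, -0.22 to 0.22), and FGFR3, a growth factor receptor of spermatogonia, at 84.1 and 83.5 CPM. Of 18 genes of mitosis and 19 of S phase, 0 were higher and 0 lower. The same held for 21 genes of pachytene and later spermatocytes, 11 of spermatids, 20 of the piRNA pathway and 6 of the pentose phosphate pathway.

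Of 14 immediate early genes, 6 were higher in axis-marked germ cells at 60 days than at 30 days and 0 lower, with a median log2 ratio of 1.11. FOSB was at 393 CPM at 60 days and 90.2 CPM at 30 days (a log2 ratio of 2.12), EGR1 at 326 and 110 CPM, and NR4A1 at 124 and 29.9 CPM. FOS was at 830.3 CPM at 60 days and 423 CPM at 30 days, just under the limit of 2-fold. In all other kept barcodes, FOSB was at 2221 CPM at 60 days and 776 CPM at 30 days. Sertoli markers in the axis-marked barcodes summed to 695 CPM at 60 days and 477 CPM at 30 days, and 2 of 12 were higher. With the Sertoli genes of the rule held under 0.05% of UMIs, a limit chosen after seeing the data, the median log2 ratio of the immediate early genes was 0.67. With 10% of UMIs subtracted as free RNA, the median was 2.26, with 8 genes higher and 1 lower. Without the highest Scrublet scores it was 1.82, with 12 genes higher and 0 lower. That removal was one-sided: it took 0 of 172 axis-marked barcodes at 60 days and 199 of 992 at 30 days. In the same setting 9 Sertoli, 2 stromal and 4 immune markers were higher and 0 of these lower. There 1 Leydig and 1 endothelial marker were lower.

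Single genes moved beside these groups. GLB1L2, a beta-galactosidase-like enzyme, was at 105 CPM at 60 days and 32.4 CPM at 30 days (log2 interval 1.48 to 1.93). MAPK7, a mitogen-activated kinase, was at 150 and 69.9 CPM, and ATP2B4, a calcium pump of the plasma membrane, at 98.7 and 43.5 CPM. RADX, which binds single-stranded DNA at replication forks and belongs to the rule, was at 38.9 and 14.4 CPM. CRABP1 was at 384 CPM at 60 days and 208 CPM at 30 days, and KIT, the receptor of differentiating spermatogonia, at 93.6 and 51.2 CPM, both under 2-fold. Lower at 60 days were GPX1, a glutathione peroxidase, at 48.0 CPM against 136 CPM at 30 days (log2 -1.51, -1.78 to -1.24), and EEA1, an early endosome protein, at 554 against 1170 CPM. MGST3, a microsomal glutathione transferase, was at 155 against 326 CPM, and CD79A, known from the B-cell receptor, at 119 against 269 CPM. In all other kept barcodes CD79A was at 95.3 CPM at 60 days and 211 CPM at 30 days, so it was lower in the rest of the library as well. EEA1 was at 134 and 149 CPM there, and MGST3 at 231 and 247 CPM. In axis-marked barcodes of the remaining ages, GPX1 was at 234 CPM at 7 days and 19.4 CPM at 90 days.

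Of 6 Leydig markers, 3 were lower in axis-marked germ barcodes of 60 days than of 30 days and 0 higher, before any correction for free RNA. INSL3 was at 38.5 CPM at 60 days and 306 CPM at 30 days. In all other kept barcodes INSL3 was at 309 CPM at 60 days and 3825 CPM at 30 days. Of the 97 INSL3 UMIs in the axis-marked barcodes at 60 days, 47 were in 1 barcode. Its level in germ barcodes moved with that in the rest of the library. With 10% of UMIs subtracted as free RNA of the library's own composition, 24 INSL3 UMIs were left at 60 days and 0 at 30 days, and 2 of 6 Leydig markers were higher and 0 lower. Without the highest Scrublet doublet scores, INSL3 was at 38.5 CPM at 60 days and 111 CPM at 30 days, and 1 Leydig marker was lower.

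Against 90 days, the axis-marked germ cells of 60 days had higher levels of genes of prospermatogonia and undifferentiated spermatogonia and lower levels of genes of cell division, spermatocytes and spermatids. Of 20132 genes, 23.6% were higher and 8.9% lower at 60 days, with a median log2 ratio of 0.28. The calls numbered 4745 higher and 1792 lower (72.6% higher), and 3547 and 2791 (56.0% higher) with TMM scaling, which shifts all log2 ratios by -0.31. Of 23 genes of undifferentiated spermatogonia, 11 were higher and 0 lower, with a median log2 ratio of 0.91. GFRA1 and RET, the receptor pair for the niche factor GDNF, were at 13.9 and 31.3 CPM at 60 days, against 2.28 and 8.22 CPM at 90 days. FGFR3 was at 84.1 CPM at 60 days and 7.48 CPM at 90 days (log2 3.49, 3.18 to 3.80), and ID4, an inhibitor of transcription factors in stem spermatogonia of mice, at 49.2 and 22.4 CPM. Of 18 genes of GDNF, KIT and FGF reception, 8 were higher and 0 lower, while KIT itself was at 93.6 CPM at 60 days and 85.2 CPM at 90 days.

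Genes that silence transposons were among those higher at 60 days. PIWIL4 was at 82.5 CPM at 60 days and 2.43 CPM at 90 days (log2 5.09, 4.63 to 5.57). DNMT3L, a cofactor of new DNA methylation, was at 40.0 and 0.545 CPM, MORC1 at 101 and 7.68 CPM, and SPOCD1, which links piRNAs to DNA methylation in mice, at 35.3 and 2.13 CPM. Of 21 piRNA genes, 8 were higher and 2 lower at a median log2 ratio of 0.34, and 6 were higher and 4 lower with TMM scaling. Among 17 genes of DNA methylation and chromatin, 7 were higher and 5 lower. The methyltransferases that set new marks, DNMT3A and DNMT3B, were at 65.0 and 34.9 CPM at 60 days, against 19.7 and 9.41 CPM at 90 days. DNMT1, which copies methylation after replication, was lower, at 159 CPM at 60 days and 389 CPM at 90 days (log2 -1.29, -1.44 to -1.15). Also among the highest ratios were FGF8, a growth factor, at 67.0 and 0.694 CPM, THBS4, an extracellular matrix protein, at 63.0 and 1.63 CPM, and CSRP2, a LIM-domain protein, at 118 and 7.33 CPM. In all other kept barcodes THBS4 was at 28.0 CPM at 60 days and 1.54 CPM at 90 days, so it was higher there as well. FGF8 was at 4.36 and 0.551 CPM in those barcodes, and CSRP2 at 22.7 and 13.8 CPM.

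Cell division genes were lower at 60 days. Of 18 mitosis genes, 14 were lower than at 90 days and 0 higher, with a median log2 ratio of -1.41, and 7 of 19 S phase genes were lower and 0 higher (13 lower with TMM scaling). TOP2A, a topoisomerase of dividing cells, was at 142 CPM at 60 days and 523 CPM at 90 days (log2 -1.88, -2.04 to -1.73). AURKB, a mitotic kinase, was at 11 and 58.6 CPM, TK1, a thymidine kinase, at 13.5 and 65.0 CPM, and the linker histone gene H1-3 at 30.9 and 144 CPM. CTCFL, a germline paralogue of CTCF, was at 7.14 and 59.0 CPM, and LYAR, a nucleolar protein, at 40.0 and 210.3 CPM. In all other kept barcodes LYAR was at 27.9 CPM at 60 days and 206 CPM at 90 days, and CTCFL at 0.653 and 10.1 CPM. Both were thus lower at 60 days in the rest of the library as well.

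Genes of later germ cells were lower at 60 days. Of 20 spermatid genes, 16 were lower than at 90 days and 0 higher, with a median log2 ratio of -4.92, and of 23 genes of pachytene and later spermatocytes 11 were lower and 2 higher. PRM1, a protamine that packs sperm DNA, had 0 counts in the axis-marked barcodes of 60 days, against 191 CPM at 90 days. A floor of 3 counts over the 60-day group puts its log2 ratio at -7.33 or below. TNP1, a transition protein of spermatids, was at 2.38 CPM at 60 days and 1047 CPM at 90 days, where all other kept barcodes of the 90-day library held 1943 CPM. Spermatid genes summed to 6052 CPM in those other kept barcodes and 3473 CPM in the axis-marked ones. DDX4 had a UMI in 26.5% of the other kept barcodes of 90 days and 20.5% of the endothelial or immune ones. Whether the rule left out late germ cells at 90 days was not tested. With 10% of UMIs subtracted as free RNA, the log2 ratio of TNP1 was -8.55, against -8.78 before. PGK2, a glycolytic enzyme of spermatocytes, was at 4.36 CPM at 60 days and 60.4 CPM at 90 days. Of 13 genes of entry into meiosis, ZGLP1 was higher, and STRA8, REC8 and MEIOC were lower. STRA8, the retinoic acid target that opens meiosis, was at 7.93 CPM at 60 days and 18.3 CPM at 90 days, and the meiotic cohesin REC8 at 5.95 and 33.5 CPM. Of 16 genes of the chromosome axis 4 were lower and 0 higher, and of 28 genes of recombination 7 were lower and 2 higher.

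Immediate early genes were again higher at 60 days, in 9 of 13 genes with 0 lower and a median log2 ratio of 1.56, as FOS at 830.3 CPM at 60 days and 282 CPM at 90 days. In all other kept barcodes the immediate early genes summed to 18910 CPM at 60 days and 5993 CPM at 90 days, and in the axis-marked barcodes to 2513 and 985 CPM. With 10% of UMIs subtracted as free RNA, 4 were higher and 3 lower, with a median log2 ratio of 0.55. Of 12 Sertoli markers 3 were higher and 1 lower, and of 9 endothelial markers 3 were higher and 0 lower. Of 8 immune markers 5 were higher, with sums of 64.6 CPM at 60 days and 24.3 CPM at 90 days. Their median log2 ratio of 1.52 was -0.082 at 2000 UMIs per barcode.

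**Figure D3:**
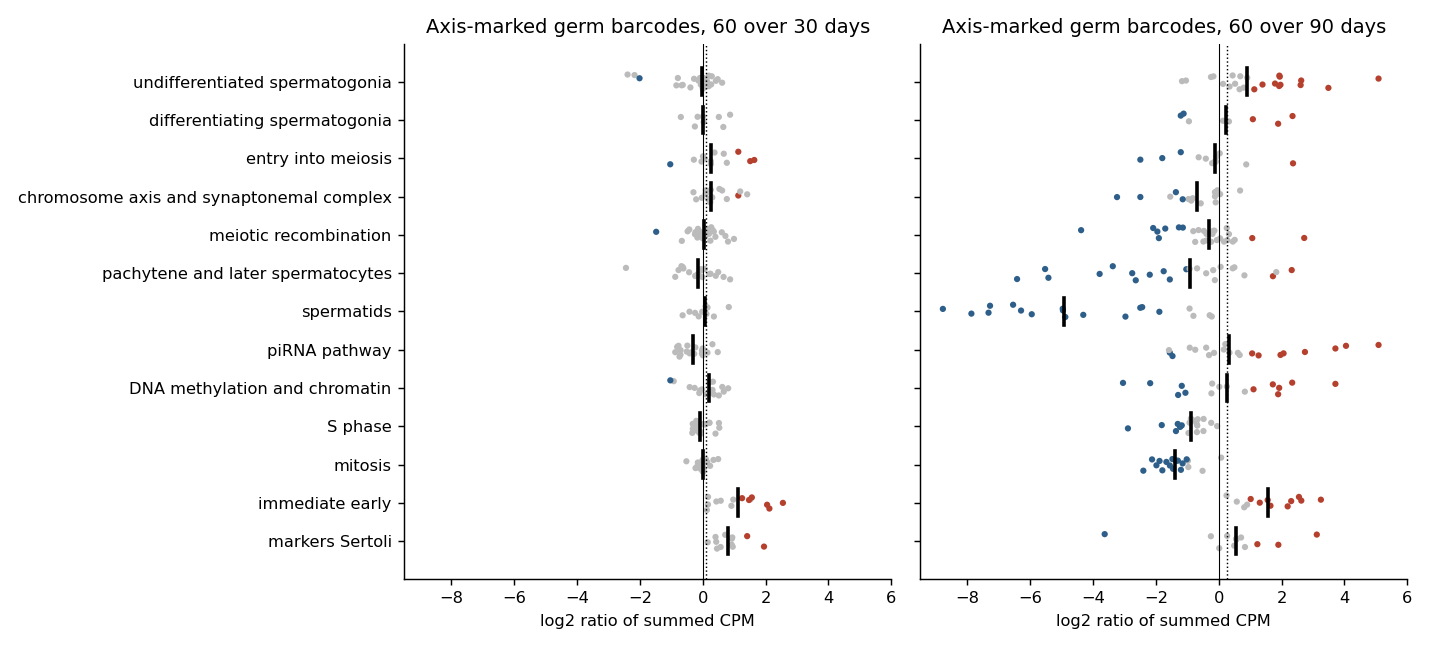
Log2 ratio of summed CPM of each measured member of 13 gene lists in axis-marked germ barcodes, 60 over 30 days (left) and 60 over 90 days (right), with genes higher in red, lower in blue and not called in grey; rule and split genes are left out and genes at 0 are drawn at the floor of 3 counts. Black bars are list medians and the dotted line is the median of all genes; spermatid genes lie at a median of -4.92 and mitosis genes at -1.41 against 90 days.

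Of the genes of entry into meiosis, MEIOC, TEX101 and TERB2 were higher in axis-marked barcodes at 60 days than at 30 days, but on few barcodes. TEX101, a surface protein of germ cells, was at 36.9 CPM at 60 days and 11.8 CPM at 30 days, and 73 of its 93 UMIs were in 2 barcodes. Without them its log2 ratio was -0.55. TERB2, which tethers telomeres in meiosis, had 23 of 37 UMIs in 1 barcode. MEIOC, a partner of YTHDC2, was at 18.2 CPM at 60 days and 6.39 CPM at 30 days, with its 46 UMIs spread over 27 barcodes. Thinned to 2000 UMIs, 1 MEIOC UMI at 60 days (3.03 CPM) and 12 at 30 days (6.06 CPM) were left, which turned the direction, and the interval of their log2 ratio ran from -6.42 to 1.76. Of 26 genes of recombination, 0 were higher and SPO11, which cuts DNA to start recombination, was the 1 lower, at 3.57 CPM at 60 days and 9.96 CPM at 30 days, on 9 counts.

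The 2 TEX101-rich barcodes, singled out after their values were seen, carried higher levels of some genes of meiotic prophase and not of others. They held 25810 and 17209 UMIs, with 56 and 17 of TEX101. SYCP1 was at 1069 CPM in them and 66.1 CPM in the remaining germ barcodes of 60 days, HORMAD1 at 349 and 24.4 CPM, DMC1, the recombinase of meiosis, at 163 and 9.98 CPM, and MEIOB, a DNA-binding partner of recombination, at 186 and 10.3 CPM. SYCE3 was at 186 CPM in them and 54.7 CPM in the remaining germ barcodes, and SYCP2 at 116 and 28.2 CPM. SPATA22 was at 442 and 71.2 CPM, and MEIOC at 209 and 13.8 CPM. SYCP3 was at 163 CPM in them and 135 CPM in the remaining germ barcodes, and SMC1B at 372 and 377 CPM. SYCE1, of the synaptonemal complex, was at 69.7 and 61.2 CPM, on 3 counts in the TEX101-rich barcodes. Both had 0 UMIs of UCHL1, PIWIL4 and KIT. SPO11, STRA8 and REC8 were also at 0 among their 43019 UMIs, and these genes were at 3.44, 7.57 and 7.23 CPM in the remaining germ barcodes. At such low levels 43019 UMIs would seldom hold a UMI of these genes, so their 0 counts show no difference. Their Sertoli genes of the rule held 0.159% and 0.180% of UMIs, near the ceiling of 0.2%. At 90 days 4 barcodes reached 10 TEX101 UMIs, and at 7 and 30 days 0 did.

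X-linked genes took a similar share of UMIs in axis-marked germ cells of all ages. Over 497 X-linked genes, without TKTL1, MAP7D2 and RADX, the 7-day, 30-day and 90-day shares were 2.35%, 2.35% and 2.43%, and the 60-day share was 2.37% (2.35 to 2.39%). In the 60-day library the axis-marked barcodes ran from 1.71% over a median of 2.32% to 3.99%, and the other germ barcodes from 1.55% over a median of 2.67% to 4.07%. The groups overlapped, and all other kept barcodes had 3.37%. A share below 1% was seen in 0 of 172 axis-marked barcodes at 60 days, with an exact interval up to 2.12%. At 90 days it was seen in 46 of 2078 (2.21%, 1.63 to 2.94%), so the intervals overlapped. The 2 TEX101-rich barcodes had X-linked shares of 2.23% and 2.99%.

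**Figure D4:**
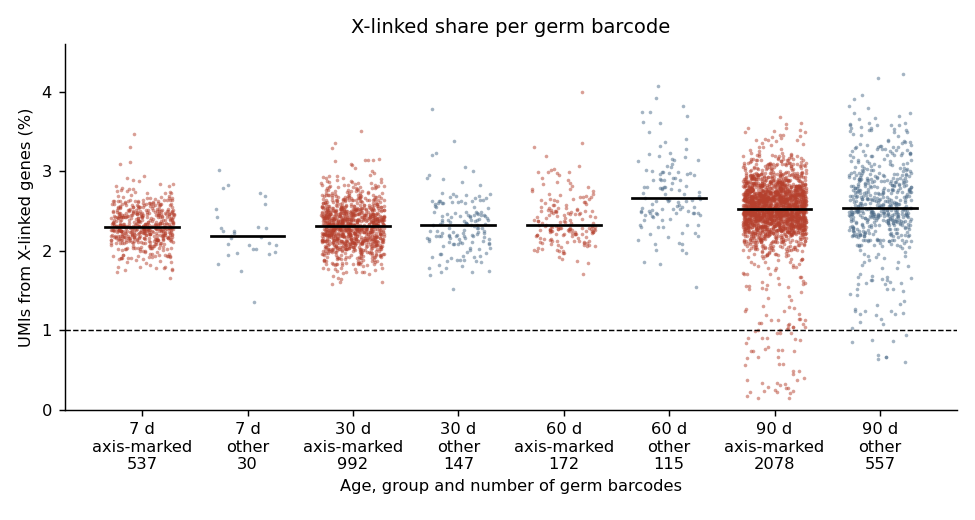
Share of UMIs from 497 X-linked genes in each germ barcode (points), by age and group, with medians as black bars and a dashed line at 1%. At 60 days no point lies below 1%, and at 90 days 46 of 2078 axis-marked barcodes do.

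Genes of prospermatogonia and DMRT1 were detected together in a minority of the 60-day germ barcodes. At 5000 UMIs per barcode, DMRT1 had a UMI in 9 of 41 barcodes with PIWIL4 (22.0%) and in 63.6% of those without it. DNMT1 had one in 6 of 49 barcodes with MORC1 (12.2%) and 44.4% of those without, and TOP2A in 5 of 41 with PIWIL4 (12.2%) and 32.6% of those without. Sets were then formed on summed UMIs. They were chosen after values were seen, from 173 barcodes thinned to 5000 UMIs, with 114 shallower ones left out. At least 2 UMIs of PIWIL4, MORC1 and DNMT3L marked 46 barcodes (26.6%, 20.2 to 33.8%), here the PIWIL4 set. At least 2 UMIs of DMRT1 and DNMT1 marked 69 barcodes (39.9%, 32.5 to 47.6%), here the DMRT1 set. At this limit, both conditions held in 0 of 173 barcodes, with an exact interval up to 2.11%, and 58 (33.5%) met neither. The 0 counts barcodes past 2 UMIs on both sums, not barcodes that hold a UMI of both kinds. The median depth was 15422 UMIs in the PIWIL4 set and 14753 in the DMRT1 set. Over the 4 ages in order, the PIWIL4 set was 39.2%, 33.2%, 26.6% and 0.327% of germ barcodes, and the DMRT1 set was 27.7%, 24.2%, 39.9% and 80.9%. Barcodes that met both conditions were 5.01% at 7 days, 4.86% at 30 days and 0.234% at 90 days.

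**Figure D5:**
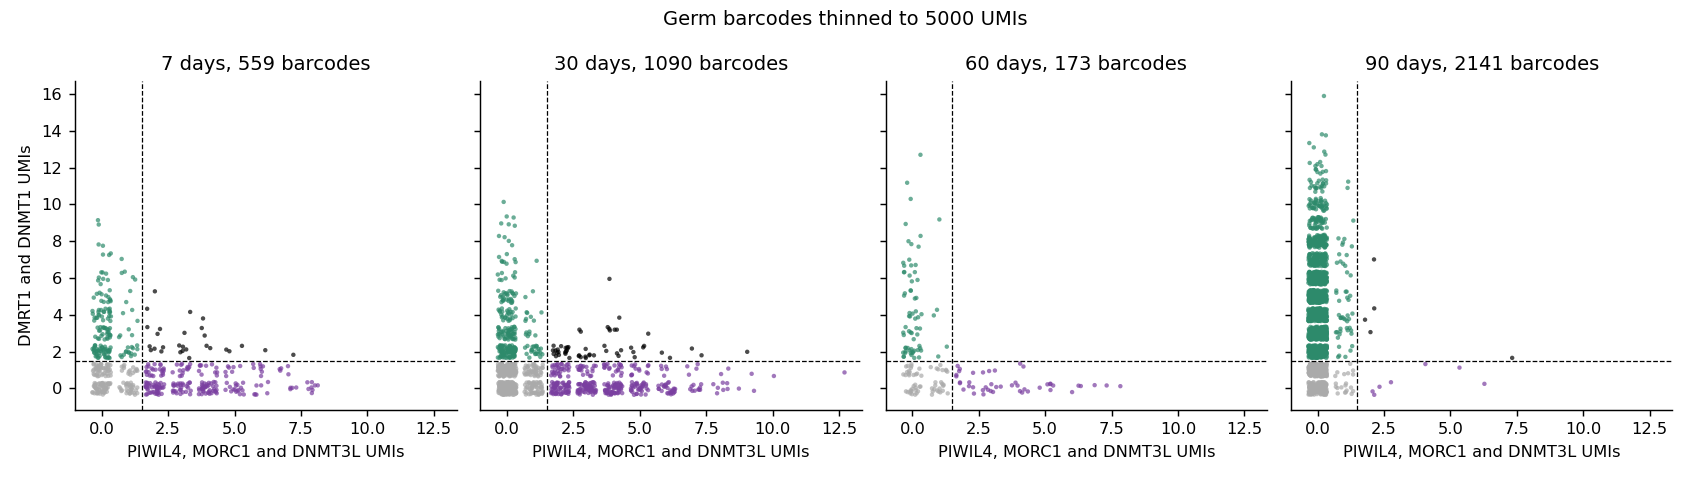
UMIs of DMRT1 and DNMT1 against UMIs of PIWIL4, MORC1 and DNMT3L in germ barcodes thinned to 5000 UMIs, by age, jittered, with dashed lines at the limit of 2 UMIs. The PIWIL4 set is purple, the DMRT1 set green, both black and neither grey; at 60 days 46 barcodes are purple, 69 green and 0 black.

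The sets were chosen on these cells, so their differences are a description. Of 12773 genes, 24% were higher and 11.5% lower in the PIWIL4 set than in the DMRT1 set, with a median log2 ratio of 0.25, and nothing is read from that count. FGF8 was at 194 CPM in the PIWIL4 set and 1.0 CPM in the DMRT1 set. FGFR3 was at 145 and 28.0 CPM, DNMT3B at 89.7 and 6.0 CPM, SPOCD1 at 89.7 and 7.0 CPM, and DND1, an RNA-binding protein that protects germ cells, at 356 and 94.0 CPM. PFKP, a phosphofructokinase of glycolysis, was at 211 and 9.0 CPM. The DMRT1 set had more CRABP1, at 93.7 CPM in the PIWIL4 set and 663 CPM in the DMRT1 set, and more of RARG, a retinoic acid receptor, at 4.01 and 27.0 CPM. NANOS3, a translational repressor of germ cells, was at 5.35 and 59.0 CPM. KIT was at 100.4 CPM in the PIWIL4 set and 108 CPM in the DMRT1 set.

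Genes of cell division were lower in the PIWIL4 set. Of 18 mitosis genes 13 were lower in the PIWIL4 set and 0 higher, and of 17 S phase genes 11 were lower and 0 higher. TOP2A was at 17.4 CPM in the PIWIL4 set and 288 CPM in the DMRT1 set, and MCM4, a subunit of the replicative helicase, at 9.37 and 116 CPM. The genes that chose the sets are in neither list, but DNMT1, which copies methylation after replication, helped to choose the DMRT1 set. The gate was thus not independent of cell division, and these counts are a description. The median barcode held 4 UMIs of the mitosis genes in the PIWIL4 set and 4 in the DMRT1 set, and the means were 4.41 and 10.7. At least 10 such UMIs were found in 2 of 46 barcodes of the PIWIL4 set and 24 of 69 of the DMRT1 set. At the limit of 2 UMIs a minority of barcodes thus carried the difference. With at least 3 UMIs asked of a set, the medians were 4 in the PIWIL4 set and 9 in the DMRT1 set. At least 10 mitosis UMIs were then found in 2 of 33 and 22 of 46 barcodes. The PIWIL4 set also had higher immune markers in 6 of 6 genes, endothelial in 4 of 6 and Leydig in 4 of 5. Of its 88 immune UMIs, 33 and 24 were in 2 barcodes, and 109 of its 315 Leydig UMIs were in 1. The Sertoli markers summed to 686 CPM in the PIWIL4 set and 612 CPM in the DMRT1 set.

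Levels within the DMRT1 set differed between ages. UCHL1 was at 474 CPM in the 7-day, 496 CPM in the 30-day, 801 CPM in the 60-day and 337 CPM in the 90-day cells. CRABP1 was at 112, 317, 663 and 682 CPM at those ages, and RADX at 13, 24.6, 93.0 and 128 CPM, where the 60-day value of CRABP1 lay near that of 90 days. ETV5, a transcription factor downstream of GDNF, was at 254, 180.0, 57.0 and 35.6 CPM. TOP2A was at 229, 219, 288 and 549 CPM. In the PIWIL4 set FGFR3 was at 63.1 CPM at 7 days, 116 at 30 days and 145 at 60 days, and FGF8 at 188, 199 and 194 CPM. At 90 days that set held 7 barcodes.

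The other germ barcodes of 60 days held fewer UMIs, 427247 in all, and more somatic RNA. Against 30 days, 5.98% of 12884 genes were higher and 8.18% lower. The median log2 ratio was -0.16. The calls numbered 771 higher and 1054 lower (42.2% higher), and 1065 and 750 (58.7% higher) with TMM scaling, which shifts all log2 ratios by 0.15. The median depth of these barcodes was 2612 UMIs at 60 days and 7241 at 30 days, and its part was not tested. Of 20 piRNA genes, 8 were lower and 0 higher at 60 days. Of 15 genes of germline RNA-binding and identity, 5 were lower and 0 higher. PIWIL4 was at 60.9 CPM at 60 days and 212 CPM at 30 days (log2 -1.80, -2.45 to -1.21), with 9 of its 26 UMIs at 60 days in 1 barcode. DMRT1 was higher, at 201 CPM at 60 days and 82.3 CPM at 30 days, and CRABP1 was at 356 and 165 CPM. All 11 measured immediate early genes were higher, with a median log2 ratio of 1.95. Sertoli markers were higher in 7 of 9 genes, among them AMH, INHA and CLDN11, whose share the rule limits. Outside the rule SOX9, WT1, GATA4 and DEFB119 were higher, 4 of 6 genes. With the rule's Sertoli genes held under 0.05%, the log2 ratio of INHA was -0.69, against 1.13 under 0.2%. Stromal markers were higher in 4 of 4 genes, while Leydig markers were lower in 5 of 5, CYP11A1 having 0 counts at 60 days. With 10% of UMIs subtracted as free RNA, 11 immediate early genes and 4 stromal markers were higher and 5 Leydig markers lower. The limit of 0.05%, chosen after seeing the data, kept fewer of these calls. It left 6 immediate early genes called higher (list median 1.40) and 1 Sertoli marker (list median 0.50). The 4 stromal markers stayed higher under it, and the 5 Leydig markers stayed lower.

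Against 90 days, the other germ barcodes of 60 days had 8.77% of 14891 genes higher and 8.34% lower. The median log2 ratio was 0.00. PIWIL4 was at 60.9 CPM at 60 days and 4.19 CPM at 90 days (log2 3.86, 2.87 to 4.91), and PAGE4, a member of a cancer-testis family, at 51.5 and 2.39 CPM. Of 19 spermatid genes 17 were lower and 0 higher, and of 18 mitosis genes 6 were lower and 0 higher. MYBL2, a transcription factor of the cell cycle, was at 25.7 CPM at 60 days and 108 CPM at 90 days. Of 12 immediate early genes 10 were higher, and 4 of 4 stromal markers were higher, with sums of 1683 CPM at 60 days and 478 CPM at 90 days.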

How the data were processed

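The deposited files hold raw UMI counts per gene and barcode for 4 libraries, not normalized by the authors. The Cell Ranger version is 5.0.1 per the file headers, and bcl2fastq, Scanpy 1.7.1 and build Sscrofa11.1 are listed in the submitters' processing notes. Against 86453 captured cells in the labels, 69602 barcodes were deposited and 55798 were kept. Library totals ran from 45717373 to 96133720 UMIs, the lowest at 60 days, where 4498 barcodes were under 1000 UMIs. Of 31908 features, 17333 have a symbol, 825 of them from a reference table, and 50 of 399 list genes had no feature.

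Counts were summed per age and group with Python 3.11.15, NumPy 2.4.6, SciPy 1.17.1 and pandas 2.3.3, and intervals are exact Poisson, Clopper-Pearson or conditional binomial. TMM factors came from edgeR 4.0.16 in R 4.3.3. Endothelial or immune barcodes had at least 3 markers of one of these types and were not germ cells. Germ barcodes, gene lists and alternatives were chosen with earlier results of these data known. Named genes were the 10 with the interval bound farthest from no change in each direction, at 50 CPM or more and no lower than in the rest of the library, plus list members. The comparison of axis-marked cells with 30 days and the PIWIL4 and DMRT1 sets were added after seeing the data. Doublets were not removed: Scrublet, run in Scanpy 1.11.5, called 0 barcodes at 60 days by its automatic threshold, which has then not worked, and removal of the expected share by score, tried as an alternative, took 3 of 287 germ barcodes at 60 days, 59 of 567 at 7 days, 234 of 1139 at 30 days (20.5%) and 406 of 2635 at 90 days (15.4%). Of the kept 60-day barcodes 162 shared a sequence with another library, 2 of them germ cells. Simulated counts with known ratios were used to check the code.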

Additional observations from a re-analysis of the deposited data

How the results depend on the processing

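No paired analysis was possible because each age has 1 library. The share of germ cells at 60 days (2.39%) was 4.85% with at least 2 germ markers, 1.44% with at least 4, 2.99% with no somatic ceiling, 1.84% under 0.1%, 3.56% with at least 2000 UMIs and 1.24% when thinned. The axis-marked share (59.9%) was 73.5% at 2 UMIs, 42.9% at 5 and 10.7% when thinned. The X-linked share was 2.40% as a mean over barcodes and 2.56% without ribosomal protein and mitochondrial genes. At 3 UMIs the PIWIL4 set held 19.1%, the DMRT1 set 26.6% and neither 54.3%.

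Axis-marked against other germ cells, 327 genes were higher in the main setting and 639 by means over barcodes, 210.0 when thinned to 2000 UMIs, 207 at a split of 5 UMIs, 195 with at least 4 germ markers and 164 with a somatic share under 0.05%. Lower were 647, 273 when thinned and 405 under 0.05%. Axis-marked at 60 against 30 days, 335 were lower and 819 by means over barcodes, and 1102 higher and 440.0 when thinned. At 60 against 90 days, 4745 were higher and 1833 when thinned, and 1792 lower, 2791 with TMM factors and 1084 when thinned. In other germ cells at 60 against 30 days, 771 were higher and 483 when thinned. Lower were 1054, 1757 by means, 658 when thinned, 479 with at least 4 markers, 522 with at least 5000 UMIs and 530.0 under 0.05%. At 60 against 90 days, 1306 were higher, 656 when thinned and 2716 at a split of 5 UMIs. Lower were 1242, 750.0 when thinned, 667 with at least 4 markers, 670.0 with at least 5000 UMIs and 701 under 0.05%. Thinning leaves fewer counts; the cause of the other shifts was not tested.

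Of the values for single genes and lists under an alternative, 3589 stayed close to the main value, 762 moved and 8 changed sign. These were, in axis-marked cells at 60 against 30 days, MEIOC when thinned (-1.0), INSL3 with 10% free RNA subtracted (5.41, with 0 UMIs left at 30 days and set at the floor of 3) and TEX101 under 0.05% (-0.75) and without its 2 rich barcodes (-0.55). At 60 against 90 days they were the immune markers when thinned (-0.082), LUM with free RNA subtracted (-1.99) and INSL3 without the highest Scrublet scores (0.26). In other germ cells at 60 against 30 days it was INHA under 0.05% (-0.69). The limits of 0.05% and 5000 UMIs, the Scrublet removal, the TEX101 removal, the thinned germ share and the sets were chosen after seeing the data. Removal of barcodes called by the automatic Scrublet threshold was not run at 60 days, since it called 0.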
